A study of Mus musculus with 83 samples.

Results

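The nuclear genes of oxidative phosphorylation were followed by RNA Polymerase II (Pol II) occupancy in mouse embryonic stem cells. The members are the genes of the deposited count tables whose symbols belong to the subunit families of respiratory complexes I to V (Nduf, Sdh, Uqcr and Cyc1, Cox4 to Cox8, Atp5), without those named as pseudogenes. The choice used names only and no measured value. It gave 93 of the 27752 genes in the C64 tables and the same 93 of the 55367 genes in the B8 tables. Of these, 40 belong to complex I by symbol, 8 to complex II, 9 to complex III, 19 to complex IV and 17 to complex V. The 8 of complex II are the 4 subunit genes Sdha, Sdhb, Sdhc and Sdhd and their assembly factors Sdhaf1, Sdhaf2, Sdhaf3 and Sdhaf4.

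Oxidative phosphorylation runs on the inner mitochondrial membrane. Complexes I (NADH dehydrogenase) and II (succinate dehydrogenase) pass electrons to coenzyme Q, complex III (cytochrome bc1) passes them on to cytochrome c, complex IV (cytochrome c oxidase) gives them to oxygen, and complex V (ATP synthase) uses the resulting proton gradient to make ATP. Most subunits are encoded in the nucleus and a few core subunits of complexes I, III, IV and V in mitochondrial DNA, which Pol II does not transcribe. The nuclear genes are expressed in nearly all cells, many of them from CpG-rich promoters without a TATA box, and binding sites for NRF1, GABP (an ETS factor) and YY1 are known in many of these promoters. Embryonic stem cells are known to draw much of their energy from glycolysis.

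The study asked what Pol II transcription needs from the TATA-box binding protein (TBP). All cells used here are JM8.N4 derivatives: C64 cells carry mAID-TBP, TBP with an auxin-inducible degron knocked in by CRISPR-Cas9, and B8 cells are C64 cells from which Tbpl1, the gene of the TBP paralogue TRF2, was also deleted. Degradation of TBP was induced with 500 µM indole-3-acetic acid (IAA), also in B8. The study names incomplete degradation as a limitation, with some TBP remaining. Pol II was mapped by CUT&Tag, in which an antibody guides a transposase that cuts and tags the DNA around the bound protein. In run 2, C64 cells received 30 min of heat shock at 42 °C with IAA after 6 h of IAA, 30 min of heat shock alone, 6 h of IAA alone, or no treatment (control). In run 3, C64 cells received retinoic acid with IAA for 16 h, retinoic acid for 16 h, IAA for 16 h, or no treatment (control). The labels and the study's methods differ on the retinoic acid dose, which is therefore not given. Each of these 8 groups has 2 libraries. B8 cells received 6 h of IAA or no treatment in runs 6 and 8, with 2 libraries per group and run. The 24 Pol II libraries belong to a series of 83 samples, and the other samples were not used. Both lines carry GFP-tagged H3.3 and, by the study's list of cell lines, a HaloTag knocked in on the largest Pol II subunit. B8 is a single knockout clone. Controls are untreated by the labels and vehicle-treated by the study's methods.

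The C64 libraries held 3854622 to 5056322 counts, those of B8 900651 to 1157308 in run 6 and 2330887 to 2523832 in run 8, and the members took 0.165 to 0.211% of them (1486 to 10474 counts per library). Replicates of C64 groups had correlations of log2(CPM + 1) over genes of 0.942 to 0.978, where CPM scales each library's counts to a common total after TMM normalization. In B8 the second control library of run 6 had the lowest correlations, 0.882 to 0.909 with the remaining B8 controls, and B8 results are therefore also given without it. Tbpl1, deleted in B8, had 0 to 4 counts in B8 libraries of run 6, 6 to 10 in those of run 8 and 29 to 75 in C64 libraries. These counts are not scaled for depth, which was higher in C64. Of the embryonic stem cell markers Pou5f1, Nanog, Esrrb, Zfp42, Dppa5a, Tdgf1, Klf4 and Tfcp2l1 had signal, while Sox2 had count 0 in all libraries. Sox1, a neuroectoderm marker, also had count 0 in all of them. Neither zero was read as absence of Pol II, since overlaps with other genes were not examined for the markers. Markers of fibroblasts had a median of 0.26 CPM per kb of gene and those of stem cells 2.2. Markers of primitive endoderm (1.94) and neuroectoderm (2.31) lay near the median of the members tested after 6 h of IAA (2.12). Those of muscle (1.02) lay below it.

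In untreated C64 cells the 83 members tested after 6 h of IAA had a median Pol II level of 2.12 CPM per kb. Over all 16157 genes tested there it was 1.28. The samples with a control antibody (IgG) were not used, so no background level was set. Presence of Pol II over a given member was therefore not tested. By complex, the median level was 1.84 CPM per kb for complex I, 1.31 for complex II, 2.12 for complex III, 2.63 for complex IV and 2.98 for complex V. The median gene length was 7674 bases for these members, against 26775 for all genes tested. It was 23439 bases for complex II and 4518 for complex IV. The part of gene length in these levels was not tested. Cox6b2, the testis isoform of a complex IV subunit, was highest at 24.5 ± 1.4 CPM per kb (SD, n = 4 libraries), followed by Ndufa11b at 19.4 ± 4.5, Ndufb10 at 17.3 ± 6.4 and Uqcrq at 15.6 ± 3.8, whose spreads overlap. Ndufb10 is an accessory subunit of the membrane arm of complex I and Uqcrq a small subunit of complex III. Ndufa11b is by its symbol a copy of Ndufa11, and reads over near-identical copies may be split or lost. Among the catalytic subunits, Atp5b (the beta subunit of ATP synthase) had 8.38 ± 2.55 CPM per kb, Cyc1 (cytochrome c1) 6.96 ± 2.34, Atp5a1 (the alpha subunit) 3.14 ± 1.45, Ndufs1 (the largest iron-sulfur subunit of complex I) 1.69 ± 0.38 and Sdha (the flavoprotein of succinate dehydrogenase) 1.29 ± 0.40. Levels ran from 0.071 to 24.5 CPM per kb in complex IV and from 0.452 to 2.33 in complex II, as the plot of levels by complex shows.

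**Figure D1:**
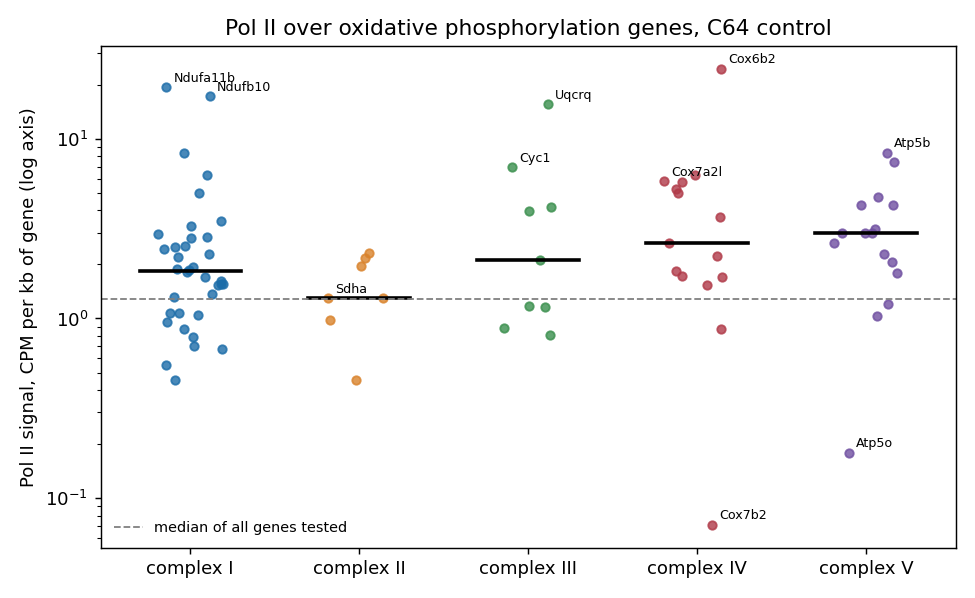
Pol II level of the 83 members tested after 6 h of IAA, in CPM per kb of gene length on a log axis, by respiratory complex; each point is the mean of 4 untreated C64 libraries, black bars are the medians of the complexes and the dashed line is the median of all genes tested. Complex V had the highest median (2.98) and complex II the lowest (1.31), with a median gene length of 23439 bases in complex II. Single genes ran from 0.071 (Cox7b2, a gene of 105382 bases) to 24.5 (Cox6b2).

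Not every member could be measured. The tables count reads over whole genes without strand, and 31 of the 93 members overlap another gene of the C64 tables. Cox4i1, a core subunit of cytochrome c oxidase, had count 0 in all 24 libraries, and so did Ndufa13, Cox6a2, Ndufs6b and Ndufb4c. All of their bases lie inside another listed gene (Cox4i1 shares 5986 bases with Galnt2l), and these zeros were not read as absence of Pol II. Of the other members 5 never passed the filter on low counts (Ndufa1, Atp5k, Sdhaf1, Cox6c2 and Cox8c, with at most 21 counts in any library), 24 were tested in 1 to 9 of the 10 comparisons of 2 groups and 59 in all of them. Atp5o is listed with 2 loci that together span 247290 bases, and its level per kb is not that of the ATP synthase gene alone. Of the isoforms known from particular tissues or conditions, Cox8c of testis had 0 to 7 counts, while Cox4i2 of lung had 18 to 134, Cox6b2 and Cox7b2 of testis 21 to 189 and 7 to 96, and Cox7a1 and Cox8b of heart and muscle 9 to 118 and 7 to 50. Ndufa4l2, known as a gene induced by low oxygen, had a median of 59 counts.

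By the authors' deposited promoter classes, 12 of the 93 members (12.9%) were TATA genes, 75 (80.6%) TATA-less genes and 6 in neither list. Among genes tested after 6 h of IAA the share of TATA genes was 13.3% for the members and 21.7% for all genes. RefSeq promoters (GRCm38.p6, 250 bases before to 50 after the start) could be matched to 72 of the 93 members, 56 of them with a start within 100 bases of the end given in the count tables. Short motifs were searched there on both strands, and a match describes letters and not a bound site. The NRF1 core CGCATGCG was found in 8 of the 72 members' promoters (11.1%), against 2.6% of the promoters of 17830 genes in the tables. The ETS and GABP motif CCGGAAG was found in 19 (26.4%), against 12.0%, and the YY1 motif AAGATGGC in 9 (12.5%), against 3.3%. In 8 of those 9 the YY1 motif lay 23 to 39 bases after the start. TATAAA was found in 9 (12.5%), against 12.9%, the GC box GGGCGG of the Sp family in 32 (44.4%), against 47.0%, and the core of the heat shock element GAANNTTC in 4 (5.6%), against 7.2%.

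The promoters of 7 members that passed a test below and have an entry are printed here. They run from 130 bases before to 50 after the RefSeq start, 5′ to 3′ along the gene. TBP, whose depletion the study tested, acts at this stretch. Capitals mark the motifs just named. Cox7a2l holds 2 GC boxes, Atp5g2 an NRF1 core and a GC box, Ndufs4 a YY1 motif and Uqcr11 an ETS motif and an NRF1 core. Atp5c1, Ndufb10 and Ndufc2 hold none of them, and no printed stretch holds TATAAA or GAANNTTC. The RefSeq start of Cox7a2l lies 2997 bases inside the gene as the tables give it, that of Atp5g2 1305 bases and that of Ndufs4 164 bases, and the others lie within 55 bases of it.
Cox7a2l, chr17:83514284-83514463, minus strand: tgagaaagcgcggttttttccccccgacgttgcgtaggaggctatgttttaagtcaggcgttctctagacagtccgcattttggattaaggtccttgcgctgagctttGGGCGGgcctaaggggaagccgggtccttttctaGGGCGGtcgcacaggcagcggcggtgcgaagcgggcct
Atp5g2, chr15:102670998-102671177, minus strand: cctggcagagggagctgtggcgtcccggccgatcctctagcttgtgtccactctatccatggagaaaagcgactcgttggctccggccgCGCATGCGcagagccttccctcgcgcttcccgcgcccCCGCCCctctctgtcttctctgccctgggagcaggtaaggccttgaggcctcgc
Ndufs4, chr13:114388045-114388224, minus strand: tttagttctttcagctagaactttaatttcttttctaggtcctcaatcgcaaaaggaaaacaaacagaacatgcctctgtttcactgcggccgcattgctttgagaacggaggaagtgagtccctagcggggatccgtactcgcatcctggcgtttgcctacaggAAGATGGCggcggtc
Atp5c1, chr2:10080461-10080640, minus strand: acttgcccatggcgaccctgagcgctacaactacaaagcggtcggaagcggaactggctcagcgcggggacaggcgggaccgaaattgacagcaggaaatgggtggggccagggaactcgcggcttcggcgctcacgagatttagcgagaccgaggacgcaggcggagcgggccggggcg
Ndufb10, chr17:24724374-24724553, minus strand: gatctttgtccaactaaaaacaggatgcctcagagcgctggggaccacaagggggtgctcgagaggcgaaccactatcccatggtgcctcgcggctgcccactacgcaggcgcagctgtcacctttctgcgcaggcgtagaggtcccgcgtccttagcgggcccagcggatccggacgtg
Uqcr11, chr10:80406772-80406951, minus strand: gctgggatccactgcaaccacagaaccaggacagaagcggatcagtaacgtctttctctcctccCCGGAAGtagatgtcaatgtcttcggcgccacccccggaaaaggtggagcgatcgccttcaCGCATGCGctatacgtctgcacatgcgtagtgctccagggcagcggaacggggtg
Ndufc2, chr7:97399873-97400052, plus strand: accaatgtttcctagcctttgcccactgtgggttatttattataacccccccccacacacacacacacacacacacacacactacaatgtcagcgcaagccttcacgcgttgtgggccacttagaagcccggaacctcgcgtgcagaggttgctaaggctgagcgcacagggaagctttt

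Heat shock lowered Pol II over 4 members in C64 cells and raised it over none that passed the test. The 4 were Cox7a2l, Atp5g2 and Atp5c1 (the c and gamma subunits of ATP synthase), and Ndufs4 (an accessory subunit of complex I). Cox7a2l is known for a factor that joins complexes III and IV into supercomplexes, a role not tested in these cells. The 4 are out of 83 members tested, beside 1.46% of all genes lower and 1.57% higher in this comparison. The test was edgeR's quasi-likelihood test, Benjamini-Hochberg adjusted over all 16332 genes, at a threshold of 0.05. The median log2 fold change of the members was 0.05 and that of all genes 0.03, with 46 members above 0 and 37 below. The plot of fold changes in each comparison shows the 4 genes at the edge of a cloud centred on 0.

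**Figure D2:**
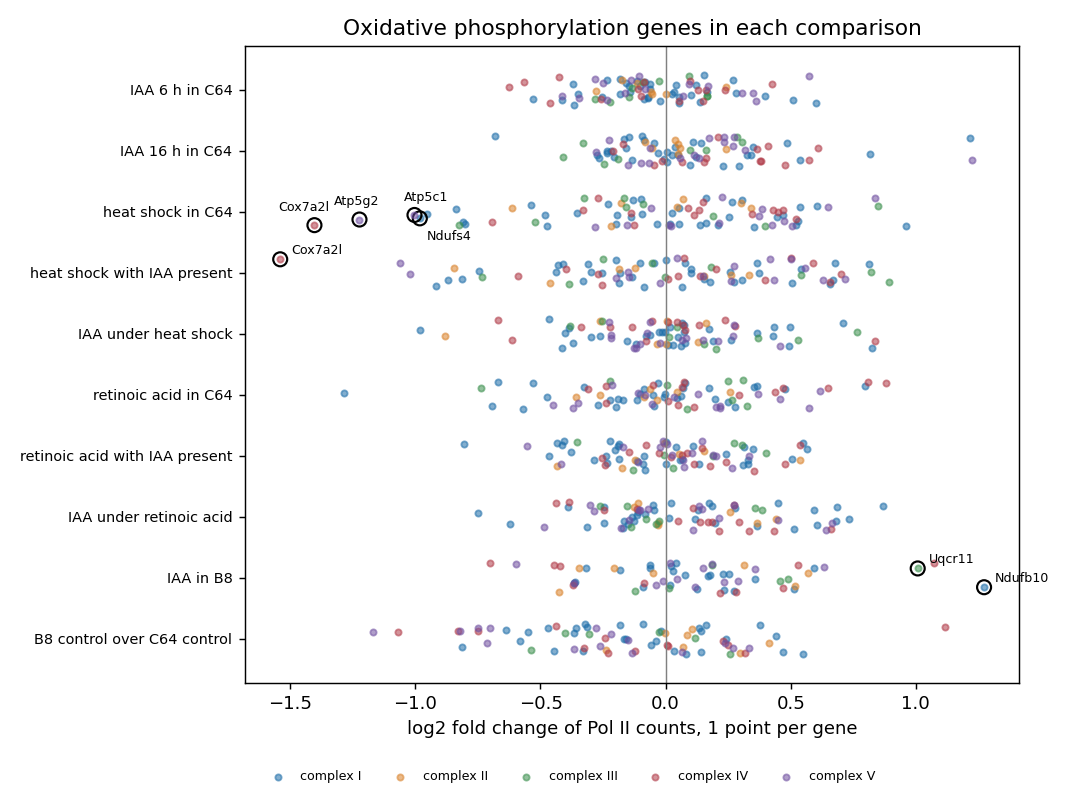
Log2 fold change of Pol II counts for each member tested, in 10 comparisons of 2 groups named at the left, coloured by complex; ringed and named points passed the adjusted threshold of 0.05 in the fit without replicate block. The ringed genes are 4 after heat shock, 1 after heat shock with IAA present and 2 after IAA in B8; the points of all other comparisons carry no ring.

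Cox7a2l (chr17:83501918-83517330) had 29.6 and 47.3 CPM in the heat shock libraries, against 110 and 94.7 CPM in the controls, from 148 and 223 counts against 525 and 446. Its log2 fold change was -1.40 ± 0.25 (SE, adjusted p = 0.00681). Atp5g2 (chr15:102662864-102672352) had 22.8 and 21.0 CPM after heat shock, against 62.0 and 41.4 CPM in controls, a log2 fold change of -1.22 ± 0.27 (adjusted p = 0.0204). Both genes were lower in each heat shock library than in each control library. Ndufs4 (chr13:114287795-114388258) had 42.6 and 62.4 CPM after heat shock, against 104.3 and 104.5 CPM in controls (log2 fold change -0.98 ± 0.24, adjusted p = 0.0326). Atp5c1 (chr2:10056016-10080510) had 25.2 and 25.0 CPM after heat shock, against 58.9 and 42.9 CPM in controls (-1.004 ± 0.26, adjusted p = 0.0445). Here too the groups did not overlap. Kin lies 83 bases from Atp5c1 on the other strand, and its log2 fold change was 0.05 ± 0.36 (adjusted p = 0.968).

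No member passed the test upwards after heat shock. The smallest p in that direction belonged to Uqcrh, the hinge protein of complex III, with 35.6 and 25.5 CPM after heat shock, against 18.2 and 16.1 CPM in controls (log2 fold change 0.85 ± 0.29, adjusted p = 0.143). Atp5l (0.84, adjusted p = 0.258) and Ndufa7 (0.54, adjusted p = 0.268) came next. The core catalytic subunits lay between -0.83 (Uqcrfs1, the Rieske protein) and 0.35 (Ndufs1), with no adjusted p below 0.322. The value of Uqcrfs1 rests on few counts, 26 and 1 after heat shock against 35 and 12 in controls. Intervals were wide with 2 libraries a group: the 95% interval of 34 of the 83 members (41.0%) lay within 2-fold in either direction, against 56.1% of all genes. The 9 stem cell markers summed to 2281 to 2403 CPM in the heat shock libraries, against 1275 to 1497 CPM in the controls. The stem cell sum mostly follows Esrrb and Tfcp2l1, with up to 5552 and 5784 counts in a library. No other stem cell marker had more than 385 (Zfp42). The 4 neuroectoderm markers summed to 169 to 258 CPM, against 108 to 118 CPM. The part of these markers in the results was not tested. As in all bulk data, fewer cells of a type and less Pol II per cell cannot be told apart. Cox7a2l passed under each alternative run. Without the first control library (set a) Cox7a2l was the only member called, beside 0.33% of all genes lower, and without the second (set b) Cox7a2l and Atp5g2, beside 0.696%. Without the second heat shock library 12 members passed, 5 higher and 7 lower, shares near the 5.73% of all genes higher and 9.62% lower in that fit.

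With IAA present, heat shock again lowered Pol II over Cox7a2l. Cox7a2l had 26.7 and 51.6 CPM after heat shock with IAA, against 122.8 and 105.1 CPM after 6 h of IAA alone (log2 fold change -1.54 ± 0.28, adjusted p = 0.0211). It was 1 of 83 members called, beside 0.704% of all 16486 genes lower. These 4 libraries are not those of the comparison without IAA. The other 3 genes did not pass here in the fit without replicate block, and their values with a block are given at the end. Atp5g2 had a log2 fold change of -1.06 ± 0.27 (adjusted p = 0.0686), Atp5c1 -1.02 ± 0.26 (0.0696) and Ndufs4 -0.74 ± 0.24 (0.135). For each of the 3, both libraries of heat shock with IAA lay below both IAA libraries. Ndufb10 (-0.92 ± 0.24, adjusted p = 0.0696) and Ndufa10 (-0.87 ± 0.23, 0.0727), both of complex I, and, upwards, Uqcrh (0.89 ± 0.25, 0.0935), Ndufs7 (0.81 ± 0.28, 0.157) and Atp5d (0.63 ± 0.26, 0.239) had the next smallest p. Without the first library of heat shock with IAA 3 members passed (Cox7a2l, Atp5g2 and Ndufa10, all lower), beside 1.5% of all genes lower. Without the second 2 members were higher and 8 lower, smaller shares than the 4.81% and 11.5% of all genes. The plot of heat shock values by library shows both pairs of groups.

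**Figure D3:**
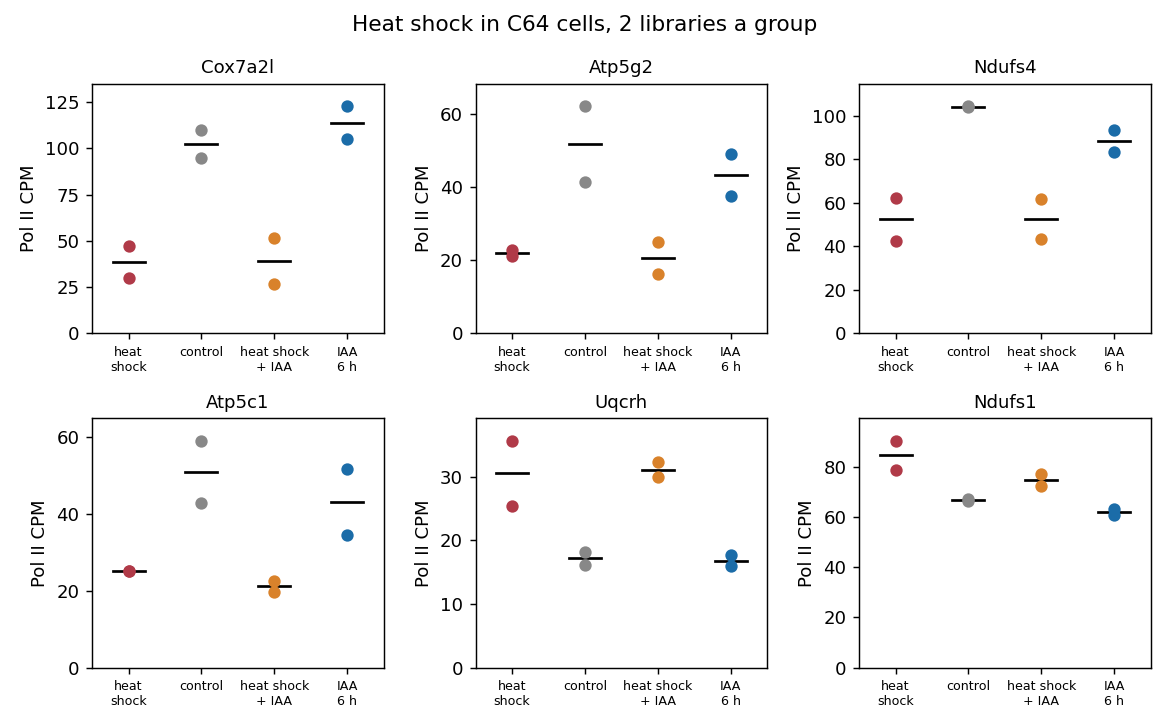
Pol II level in CPM of 6 members in the 4 groups of run 2, with 2 libraries a group as points and their mean as a bar; the axis starts at 0. Cox7a2l, Atp5g2, Ndufs4 and Atp5c1 are lower in both heat shock groups than in control and IAA libraries, Uqcrh did not pass the test, and Ndufs1 is shown as a core subunit of complex I that did not pass.

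The test of the difference between the 2 heat shock effects was passed by no member, 0 of 83, in the interaction of heat shock and IAA (edgeR, 0% of all 16961 genes, with 0 members at an unadjusted p under 0.05 and 0 called by DESeq2 and edgeR's likelihood-ratio test). At that unadjusted p 69 of all genes were higher and 52 lower. The interval of the difference lay within 2-fold for 28 of the 83. Other genes of mitochondrial energy metabolism were counted from lists. Of the 37 assembly factors tested none passed after heat shock, and with IAA present Cox18 (-1.06 ± 0.24, adjusted p = 0.0444) and Cox11 (-1.50 ± 0.33, 0.0378), which help build complex IV, were lower. Of the 15 genes of cytochrome c, the acyl carrier protein and coenzyme Q, Coq10a was lower after heat shock (-1.19 ± 0.30, adjusted p = 0.0407). Of the 17 genes of pyruvate dehydrogenase and the citric acid cycle, malate dehydrogenase Mdh2 was lower (-1.04 ± 0.27, 0.0446). Of the 20 tested factors for mitochondrial and respiratory gene transcription, Ssbp1, the mitochondrial single-stranded DNA binding protein, was lower (-1.39 ± 0.30, 0.0175) and Gabpa, the DNA-binding subunit of GABP, higher (0.83 ± 0.22, 0.0469). Gabpa shares 701 bases with Atp5j on the other strand.

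Depletion of TBP for 6 h in C64 cells moved no member past the threshold. Of 83 members tested 0 passed (edgeR, adjusted over 16157 genes, 0 at an unadjusted p under 0.05, 0 by DESeq2 and by the likelihood-ratio test), beside 0.0433% of all genes. At that unadjusted p 120 of all genes were higher and 234 lower. The median log2 fold change was -0.07 for the members and 0.0026 for all genes, and 62 of the 83 members (74.7%) had 95% intervals within 2-fold, against 84.6% of all genes. TMM scaling takes out a change shared by all genes, so these bounds are relative to other genes. The smallest p upwards were those of Atp5l (0.57 ± 0.27), Atp5a1 (0.30 ± 0.17) and Ndufa2 (0.60 ± 0.39), and downwards those of Ndufa4 (-0.53 ± 0.29), Cox6b1 (-0.57 ± 0.32) and Cox7c (-0.63 ± 0.38), each with an adjusted p of 1. The 10 core subunits tested lay between -0.41 (Atp5g3, a gene of the c subunit) and 0.30 (Atp5a1). None of the 37 assembly factors, 15 coenzyme Q and carrier genes, 17 citric acid cycle genes or 20 transcription factors passed.

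After 16 h of IAA, Pol II over Atp5a1 was higher once the replicate number was taken into account. Atp5a1 (chr18:77773729-77782869) had 54.2 and 28.3 CPM in the IAA libraries, against 22.9 and 13.0 CPM in the controls, from 265 and 120 counts against 108 and 58. Replicate 1 was higher than replicate 2 in both groups, and the groups did not overlap. Without the number as a block the log2 fold change was 1.23 ± 0.38 and did not pass (adjusted p = 0.999), with 0 of 80 members called (0% of all 16349 genes, 2 members higher and 0 lower at an unadjusted p under 0.05, 0 by DESeq2 and the likelihood-ratio test). At that unadjusted p 146 of all genes were higher and 173 lower. Same-numbered libraries of run 3 deviated together in all 6 pairs of groups, and with the block the change of Atp5a1 was 1.21 ± 0.20 (adjusted p = 5.59e-07). It was then the only member called of 80, beside 0.734% of all genes higher. The call was lost under spike-in scaling with the block (log2 fold change 0.95, adjusted p = 1), an alternative added after the data were seen, and without the first control library and with no block Atp5a1 passed (1.69, adjusted p = 0.0259), 1 of 83 members beside 0.0356% of all genes higher. Spike-in reads were 0.531% of genome reads in control and 0.508% with IAA for replicate 1, and 8.445% and 13.6% for replicate 2. The 2 replicates thus moved in opposite directions in the spike-in share. Haus1, which shares 158 bases with Atp5a1 on the other strand, had a log2 fold change of 0.13 ± 0.21 in the blocked fit (adjusted p = 0.877). Ndufc2 (0.82 ± 0.31) and Ndufs5 (1.21 ± 0.55) were next upwards, and Ndufa11b (-0.68 ± 0.43), Uqcr10 (-0.41 ± 0.34) and Atp5j (-0.28 ± 0.24) had the smallest p downwards, each with an adjusted p of 0.999 in the fit without block.

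After retinoic acid, which drives stem cells out of pluripotency, members passed the test only in the blocked fit, and in a smaller share than all genes. They were Ndufb9 and Ndufb10, which were lower, and Ndufc2, which was higher, all of them accessory subunits of the membrane arm of complex I. Without the block 0 of 78 members passed (0.0183% of all 16350 genes, 1 member higher and 1 lower at an unadjusted p under 0.05, 0 by DESeq2 and the likelihood-ratio test). At that unadjusted p 404 of all genes were higher and 604 lower. With the block 2 members were lower and 1 higher, beside 6.64% and 4.75% of all genes. The 9 stem cell markers summed to 499 to 765 CPM in the retinoic acid libraries, against 1133 to 1733 CPM in the controls. Here too the stem cell sum mostly follows Esrrb and Tfcp2l1. The 4 neuroectoderm markers summed to 87.9 to 93.2 CPM, against 147 to 152 CPM. The part of these markers in the members' values was not tested.

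Ndufb9 had 6.82 and 3.04 CPM after retinoic acid, against 11.03 and 13.2 CPM in controls, from 33 and 13 counts against 52 and 59. Its log2 fold change was -1.31 ± 0.38 with the block (adjusted p = 0.00763) and -1.29 ± 0.46 without (0.761). Ndufc2 had 18.2 and 19.6 CPM after retinoic acid, against 10.4 and 11.4 CPM in controls (0.80 ± 0.28 with the block, adjusted p = 0.0414, and 0.775 without). These 2 genes did not overlap between groups. Ndufb10 had 27.5 and 15.4 CPM after retinoic acid, against 48.1 and 21.5 CPM in controls, lower within each replicate number although the groups overlap (-0.67 ± 0.21 with the block, adjusted p = 0.0201, and 0.91 without). Next upwards in the blocked fit came Atp5a1 (0.64 ± 0.23, adjusted p = 0.0501) and Cox7b2 (0.90 ± 0.33, 0.0522), and downwards without block Ndufb6 (-0.67 ± 0.35, 0.876) and Uqcr10 (-0.74 ± 0.39, 0.881). Under spike-in scaling with the block, Ndufb9 passed (-1.58, adjusted p = 0.01), and Ndufb10 (-0.92, 0.166) and Ndufc2 (0.52, 0.577) did not.

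**Figure D4:**
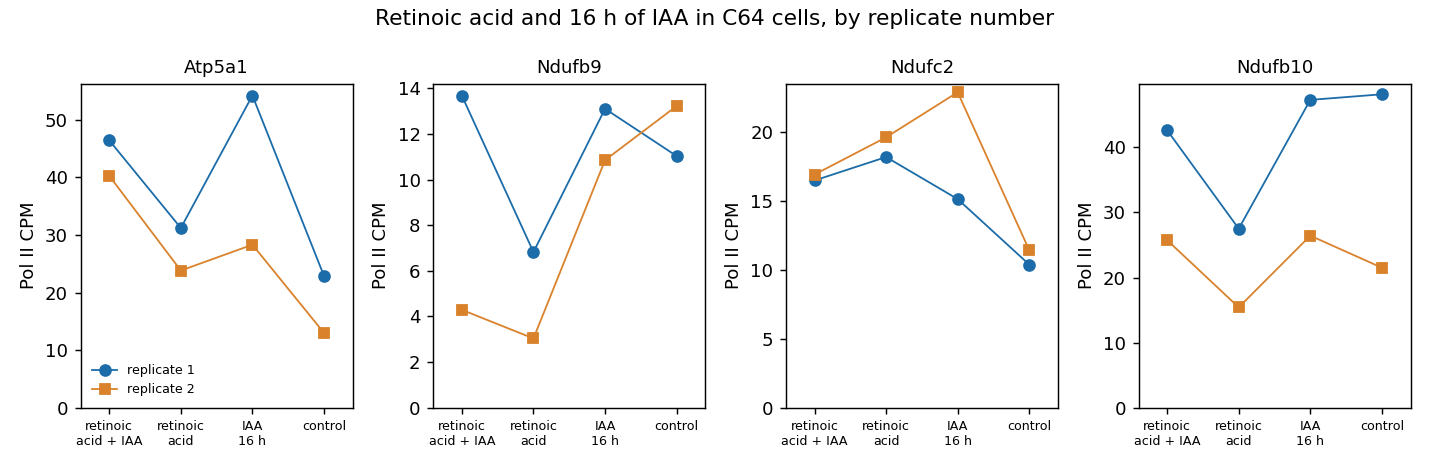
Pol II level in CPM of Atp5a1, Ndufb9, Ndufc2 and Ndufb10 in the 4 groups of run 3, with lines joining libraries of the same replicate number. Atp5a1 is above control in each treated group for both numbers, and in control Ndufb10 has 48.1 CPM for number 1 and 21.5 for number 2.

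With IAA present, retinoic acid moved no member past the threshold, with the block or without it (0 of 80, 0% of all 16395 genes without the block and 1.82% with it, 0 members at an unadjusted p under 0.05 without the block, and 2 higher and 2 lower with it). At that unadjusted p 305 of all genes were higher and 324 lower without the block, and 887 and 914 with it. Ndufb9 had 13.7 and 4.29 CPM after retinoic acid with IAA, against 13.1 and 10.9 CPM after IAA alone, and Ndufc2 had 16.5 and 16.9 CPM, against 15.1 and 22.9 CPM, so the groups overlapped for both. The smallest p were those of Ndufs6 (-0.80 ± 0.38), Atp5j (-0.55 ± 0.29) and Sdhb (-0.43 ± 0.26) downwards and Ndufb7 (0.51 ± 0.28), Cox7a1 (0.54 ± 0.36) and Ndufs1 (0.33 ± 0.23) upwards, all with an adjusted p of 1. IAA under retinoic acid likewise gave 0 of 79 members (0% of all 16439 genes without the block and 1.04% with it, 1 member higher and 0 lower at an unadjusted p under 0.05 without the block, 5 higher and 1 lower with it). Over all genes 63 were higher and 41 lower at that unadjusted p without the block, and 776 and 752 with it. Atp5a1 had 46.4 and 40.3 CPM after retinoic acid with IAA, against 31.2 and 23.8 CPM after retinoic acid alone (0.67 ± 0.19 with the block, adjusted p = 0.081). IAA under heat shock gave 0 of 81 (0% of all 16628 genes, 0 at an unadjusted p under 0.05), where Ndufa11b (-0.98 ± 0.49), Sdhaf4 (-0.88 ± 0.44) and Cox7a1 (-0.61 ± 0.31) had the smallest p downwards and Cox7b2 (0.84 ± 0.44), Ndufv1 (0.82 ± 0.50) and Ndufv3 (0.49 ± 0.31) upwards. Under heat shock 77 of all genes were higher and 83 lower with IAA at that unadjusted p. DESeq2 and the likelihood-ratio test called 0 members in these 3 comparisons. The interaction of retinoic acid and IAA gave 0 of 81 (0% of all 17032 genes, 1 member higher and 1 lower at an unadjusted p under 0.05, 0 by the other tools). In it 85 of all genes were higher and 33 lower at that unadjusted p.

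In B8 cells, which lack TRF2, IAA raised Pol II over 2 members, the complex I gene Ndufb10 and the complex III gene Uqcr11. They are 2 of 59 members tested, beside 2.44% of all 13219 genes higher, and none of the members was lower, beside 3.36% of all genes lower (edgeR with run as a block, 8 members higher and 3 lower at an unadjusted p under 0.05). At that unadjusted p 1332 of all genes were higher and 1428 lower. The median log2 fold change was 0.12 for the members and -0.02 for all genes, with 38 members above 0 and 21 below. Ndufb10 (chr17:24722060-24724478) had 73.1 and 85.1 CPM in run 6 and 68.75 and 87.7 CPM in run 8 after IAA, against 32.7 and 25.65 CPM in run 6 and 43.5 and 28.1 CPM in run 8 in controls. All 4 IAA libraries lay above all 4 controls. The log2 fold change was 1.27 ± 0.17 (adjusted p = 4.49e-04), with 1.38 ± 0.27 in run 6 alone (0.0893) and 1.19 ± 0.18 in run 8 alone (1.12e-07). Rps2, a ribosomal protein gene 131 bases away on the other strand, had a log2 fold change of 0.65 ± 0.20 and did not pass (adjusted p = 0.0715). Counting was without strand.

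Uqcr11 (chr10:80402997-80406830) encodes a small subunit of complex III. It had 29.4 and 27.3 CPM in run 6 and 23.4 and 28.2 CPM in run 8 after IAA, against 14.3 and 5.13 CPM in run 6 and 18.25 and 14.3 CPM in run 8 in controls, from 33 to 66 counts against 5 to 39. The groups did not overlap (log2 fold change 1.01 ± 0.26, adjusted p = 0.0344). The change was 0.80 ± 0.23 (adjusted p = 0.0118) without the second control of run 6, the lowest library, but the call was lost when any other single library was left out (adjusted p 0.0549 to 0.116), with 1 member, Ndufb10, then called in 6 of these 7 fits. Cox8a, a complex IV subunit, missed the threshold (1.07 ± 0.31, adjusted p = 0.0535). Downwards the smallest p were those of Atp5g2 (-0.60 ± 0.21, adjusted p = 0.104), Ndufa10 (-0.32 ± 0.12, 0.144) and Ndufs4 (-0.37 ± 0.17, 0.221). The core subunits lay between -0.35 (Sdha) and 0.53 (Cox5a). Without the second control of run 6, the members called were Ndufb10, Uqcr11 and Cox8a higher, beside 5.19% of all 14644 genes, and Ndufs4 (-0.49), Ndufa10 (-0.38) and Atp5g2 (-0.61) lower, beside 9.1%. Uqcr11 had a log2 fold change of 1.46 in run 6 alone (adjusted p = 0.331) and 0.72 in run 8 alone (0.0422). In run 8 alone 4 members were higher and 5 lower of 64, smaller shares than the 7.54% of all genes higher and 12.8% lower there, and in run 6 alone 0 of 41 passed, beside 0.146% of all genes (4 members higher and 0 lower at an unadjusted p under 0.05). In run 6 alone 601 of all 11608 genes were higher and 819 lower at that p.

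Whether IAA acted differently in B8 and C64 was tested directly. In the interaction of cell line and IAA 0 of 74 members passed (0.0913% of all 15338 genes, 4 members higher and 0 lower at an unadjusted p under 0.05, 0 by DESeq2 and 1, Ndufb10, by the likelihood-ratio test). At that unadjusted p 580 of all genes were higher and 494 lower. The difference was 1.14 ± 0.28 for Ndufb10 (95% interval 0.56 to 1.73, adjusted p = 0.208), 0.92 ± 0.40 for Uqcr11 (0.652) and 0.95 ± 0.44 for Cox8a (0.681). A single IAA effect over all 6 contexts (no other treatment, heat shock and retinoic acid in C64 cells, by run, and the runs of B8) gave 0 of 83 members, beside 0.797% of all 17179 genes (3 members higher and 3 lower at an unadjusted p under 0.05, 0 by the other tools). Over all genes 695 were higher and 1072 lower at that unadjusted p. Ndufb10 (0.53 ± 0.17, adjusted p = 0.16) and Atp5a1 (0.43 ± 0.15, 0.227) had the smallest p upwards, and Ndufa10 (-0.20 ± 0.08, 0.328) and Atp5j (-0.26 ± 0.11, 0.387) downwards. The plot of IAA effects by context gives the intervals. Of the other lists, IAA in B8 lowered the assembly factors Surf1 (-0.65 ± 0.18, adjusted p = 0.0417) and Ndufaf5 (-0.77 ± 0.19, 0.0226), 2 of 30 tested. Polg2, the accessory subunit of the mitochondrial DNA polymerase, was higher (1.39 ± 0.14, 4.87e-05), and Gabpb2 (-0.47 ± 0.12, 0.0362) and Pprc1 (-0.46 ± 0.13, 0.0448) were lower among 20 factors tested.

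**Figure D5:**
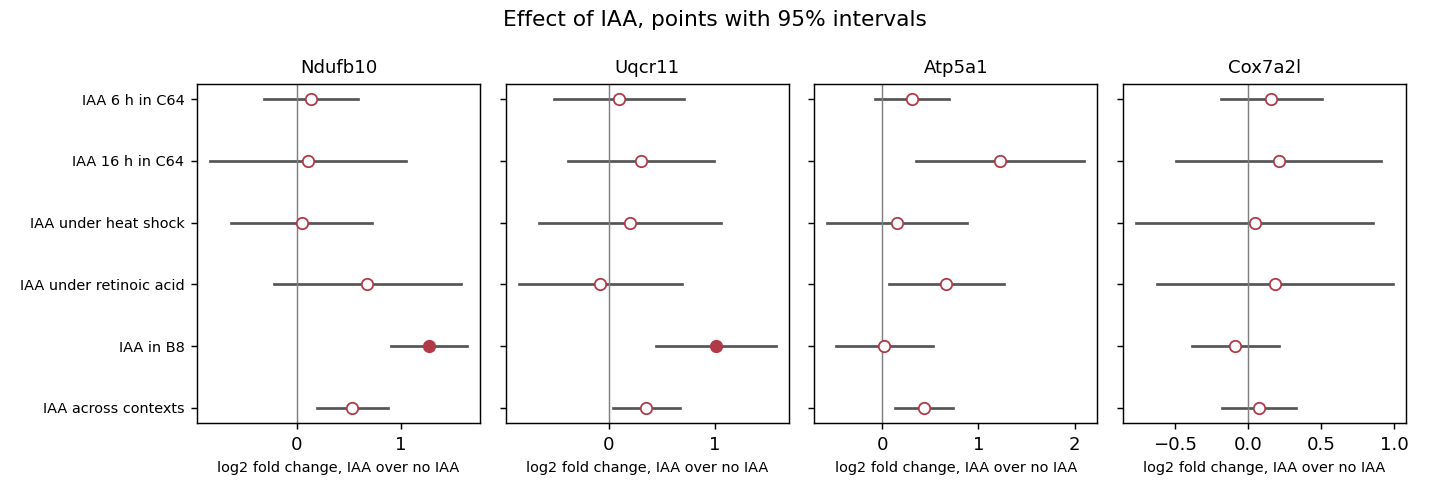
Log2 fold change of Pol II for IAA over no IAA in each context and in the fit over all contexts, for 4 members, with 95% intervals; filled points passed the adjusted threshold of 0.05 in the fit without replicate block. Ndufb10 and Uqcr11 have filled points for IAA in B8 only, Atp5a1 is highest after 16 h of IAA (1.23), and Cox7a2l, called after heat shock, has no interval that leaves out 0.

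Before any treatment, B8 and C64 cells were set side by side, although cell line and run cannot be told apart here. No member passed (0 of 71, 0% of all 14622 genes, 0 by DESeq2 and the likelihood-ratio test), and 10 members were lower and 1 higher at an unadjusted p under 0.05. At that p 523 of all genes were lower and 340 higher. The median log2 fold change of the B8 controls over the C64 controls of run 2 was -0.13 for the members and 0.02 for all genes, and by complex it was -0.26 for the 15 members of complex V tested and 0.08 for the 7 of complex II. Without the second B8 control of run 6 the members' median was -0.04, 0 of 69 passed and 10 were lower and 1 higher at an unadjusted p under 0.05. In that fit 798 of all 14112 genes were lower and 596 higher at the unadjusted p. Atp5a1 (-0.82 ± 0.24), Atp5pb (-0.75 ± 0.22), Cox7a2l (-0.75 ± 0.23) and Atp5b (-0.70 ± 0.23) had the smallest p downwards, with adjusted p of 0.784 to 0.826, and Cox7b2 (1.12 ± 0.45), Sdhc (0.41 ± 0.26) and Ndufb7 (0.38 ± 0.25) upwards. Atp5b had 36.9, 31.8, 52.9 and 52.9 CPM in the B8 controls, against 74.2 and 69.4 CPM in the C64 controls of run 2. With B8 controls of run 6 alone 2 of 75 members passed downwards (Cox7a2l and Atp5b), beside 1.91% of all genes lower, and with those of run 8 alone 2 of 76 others (Cox7c and Ndufs8), beside 1.49%. The members' median was -0.38 in run 6 alone and -0.06 in run 8 alone.

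The 10 core subunits followed here passed no test in the 10 comparisons of 2 groups with all libraries and no replicate block. Over the 10 comparisons of 2 groups Ndufs1 ranged from -0.36 to 0.35 in log2 fold change, Sdhb (the iron-sulfur subunit of succinate dehydrogenase) from -0.43 to 0.11, Cox5a (a structural subunit of complex IV) from -0.25 to 0.53, Cyc1 from -0.54 to 0.49, Sdha from -0.61 to 0.26 and Atp5b from -0.70 to 0.29. Ndufv1, which binds NADH, ranged from -0.81 to 0.82, Atp5g3 from -1.17 to 0.56 and Uqcrfs1, tested in 4 comparisons, from -0.83 to 0.76. Atp5a1 had the widest range of the 10, from -0.82 to 1.23. With 1 run alone, some of these genes passed: Sdha for IAA in B8 in run 8, and Atp5b for B8 over C64 in run 6. Leaving out 1 of 2 libraries leaves a group with 1, and calls of such fits are not counted here. Without the first heat shock library Uqcrfs1 had a log2 fold change of -4.55, from 1 count in the heat shock library left.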

How the data were processed

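Pol II CUT&Tag counts per gene were used as the authors deposited them: reads were aligned to mm10 with Bowtie2, duplicates were kept, libraries were subsampled, and whole genes of Ensembl release 102 were counted with featureCounts 2.0.0 without strand. Per the labels and column names the 24 libraries fall into 8 C64 groups of 2 and 2 B8 groups of 4. Of repeated columns 14 were compared and 0 differed. Other deposited kinds of file were used, a table of genome and spike-in read numbers for scaling in run 3 and the authors' lists of TATA and TATA-less genes. The study calls the replicates biological, but the labels do not say which libraries came from separate cultures, so p-values measure the spread between these libraries.

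Counts were tested with edgeR 4.0.16 (R 4.3.3) by the quasi-likelihood test on all genes with filterByExpr at a minimum count of 20 and TMM normalization, which removes a change shared by all genes. P-values were adjusted by Benjamini-Hochberg over all genes tested, at a threshold of 0.05. Standard errors are from the fitted model and intervals cover 95%. B8 fits had run as a block. Alternatives were DESeq2 1.42.0, the likelihood-ratio test, DESeq2 size factors, total counts, a minimum count of 10, no filter, each library left out, the replicate block, single runs, a joint fit of each run and spike-in scaling. Scripts were tested on simulated data.

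Replicate numbers of run 3 pair its libraries: same-numbered libraries deviated together in 6 of 6 pairs of groups (r = 0.403 to 0.618 over genes). Blocked values are therefore given for run 3 where they change a call. Named genes are members past the threshold in the fit without or with the replicate block, core subunits of each complex, and, in any direction with under 3 such members, the 3 lowest in p. Neighbouring genes were named after the members' values were seen. The members, lists and tests were chosen with earlier results of these data known. Not every result of the lists of related genes is reported here.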

Additional observations from a re-analysis of the deposited data

How the results depend on the processing

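Of the comparisons and interactions, 11 had 0 members called in the fits given first, where a count can only rise. No named member reversed direction past the threshold. After heat shock (4 members) the count was 1 with no filter and 1 in the joint fit of run 2, in each case Cox7a2l, and 1 to 12 with a library left out. With IAA present (1 member) it was 6 by the likelihood-ratio test, 3 by DESeq2, 6 with no filter and 1 to 10 with a library left out. After 16 h of IAA (0 members) it was 1 with the replicate block, and 0 to 1 with a library left out. After retinoic acid (0 members) it was 3 with the replicate block and 1 with spike-in scaling and the block, which was chosen after seeing the data. For IAA in B8 (2 members) it was 1 by DESeq2, which gave Uqcr11 no adjusted p, 1 with no run term, 0 in run 6 only, 9 in run 8 only and 1 to 6 with a library left out. For B8 over C64 controls (0 members) it was 2 in run 6 only and 2 in run 8 only. For the interaction of cell line and IAA (0 members) it was 1 by the likelihood-ratio test. The number of all genes called moved between fits too, and is not given here for each fit. With IAA present 115 genes were higher and 116 lower in the fit given first, against 628 and 981 with the replicate block. The counts above were therefore not read as a property of the members. The cause of these differences was not tested.

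Libraries of run 2 and of B8 are not paired by the design. Those of run 2 share only a set letter given here, as their column names hold no replicate number of the labels. By these letters r was 0.0982 to 0.4887, with 5 of 6 pairs of groups over 0.1. Blocked values were set beside the main results only where every pair was over 0.1. Those of B8 share only a number (r = -0.0365 in run 6 and 0.0061 in run 8). The block used these letters and numbers. With that replicate block the count was 6 after heat shock (adding Ndufb10 and Uqcrh), 8 with IAA present, 1 for IAA in B8 and 2 for IAA over all contexts (Ndufb10 and Atp5a1). Over all genes the block changed the calls after heat shock to 650 higher and 723 lower, against 256 and 238 without it. The 8 with IAA present were Cox7a2l, Atp5g2 (adjusted p = 7.56e-04), Atp5c1 (0.00225), Ndufb10, Ndufa10 (0.00516), Uqcrh (0.012), Ndufs4 (0.0172) and Ndufs7 (0.024), beside 628 genes higher and 981 lower of 16486. Spike-in scaling was not run for B8, since 1 B8 control has no matched row of read numbers in the table used. In B8, run 6 libraries held 900651 to 1157308 counts, and 41 members could be tested there alone, against 64 in run 8.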
